A study of Homo sapiens with 13 samples.

Results

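The EGFR family of receptors and their ligands was followed through control and bone-metastatic lung carcinoma cells. Its 10 members are the 4 receptors EGFR, ERBB2, ERBB3 and ERBB4 and the 6 ligands AREG, EREG, HBEGF, TGFA, BTC and NRG1. Members were every probe set that the platform annotation gives to one of these genes, which found 26 of the 22277 probe sets on the array, for 9 of the 11963 genes that a probe set names alone. Of these, 12 belong to the 4 receptors and 14 to 5 of the ligands, and each names 1 gene alone. EGFR and NRG1 have 6 probe sets each, HBEGF and TGFA 3 each, ERBB2, ERBB3 and ERBB4 2 each, and EREG and BTC 1 each. No probe set in the annotation used here names AREG, so AREG was not analysed here.

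The EGFR family couples growth factors outside the cell to the RAS-ERK and PI3K-AKT pathways. The ligands are made as membrane proteins and released by proteases of the ADAM family. TGFA and AREG bind EGFR, HBEGF, EREG and BTC bind EGFR and ERBB4, and NRG1 binds ERBB3 and ERBB4, while ERBB2 has no ligand of its own and acts as a partner of the others. In lung carcinoma EGFR is a known oncogene and drug target, and its ligands are studied in bone metastasis as signals between tumour and bone cells.

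The cells came from human non-small cell lung carcinoma. Control cells were not metastatic and were of 2 kinds, without a luciferase reporter (2 arrays) and with one (2 arrays). The metastatic lines M1, M4 and M5 (3 arrays each) are subpopulations recovered from the bones of mice whose hearts had received control cells, and their metastatic activity was checked in a further round of mice. Each of the 13 arrays measured RNA pooled from 3 groups of cells of its line. The labels do not say whether a line grew from 1 cell, or whether M1, M4 and M5 carried luciferase. The 3 replicates of a line share its selection, so the p-values below measure the spread between arrays of these lines.

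Values are log2 signals, on which a difference of 1 is a doubling. Any pair of arrays correlated at 0.975 to 0.998 over all probe sets. By the 62 Affymetrix control probe sets the arrays were clustered into 4 sets that no label names. The number 4 was chosen, and other numbers of sets were not tested. Set 1 held replicate 1 of each kind of control and M1 replicate 2. Set 2 held replicate 2 of each kind of control and replicate 1 of M1, M4 and M5. Set 3 held M1 replicate 3 and M4 replicates 2 and 3, and set 4 held only M5 replicates 2 and 3. Comparisons were therefore fitted without and with array set as a block, and with it M5 is measured by M5 replicate 1 alone. The keratins KRT7, KRT8, KRT18 and KRT19 of epithelial cells lay above the array's median on all 13 arrays, while EPCAM and CDH1, adhesion proteins of epithelial cells, lay below its lower quartile on all 13. The measured haematopoietic (4), endothelial (4), osteoblast (1) and osteoclast (2) markers lay below the median on every array, as did 4 of 5 fibroblast markers.

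The family was unevenly bright. Of the 26 probe sets, 6 stayed under the lower quartile on all 13 arrays, as 17.6% of all probe sets did. These were 1 of 2 for ERBB3, both for ERBB4, those of EREG and BTC, and 1 of 6 for NRG1. Another 5 lay above the median on all 13 arrays, as 44.1% of all probe sets did, and these were the brightest probe sets of EGFR, ERBB2 and TGFA and 2 of NRG1. A dim probe set can be a gene that is little expressed or a probe set that binds poorly, and these values cannot tell the 2 apart.

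No member passed the test in any of the 8 comparisons without the block. By limma with Benjamini-Hochberg adjustment at 0.05, 0 of 26 probe sets were called for the mean of the lines against control, where 0.063% of all 22215 probe sets were called. The count was 0 of 26 for M1 (background 0.0135%), M4 (0.009%) and M5 (1.4%) against control. It was also 0 of 26 for M4 against M1 (0.0135%), M5 against M1 (0.617%), M5 against M4 (1.25%) and control cells with against without luciferase (0%). At an unadjusted p under 0.05 the members counted 2, 3, 2, 5, 3, 4, 5 and 3 of 26 in that order, where 7.47, 2.79, 6.27, 16.4, 2.8, 13.4, 13.3 and 1.26% of all probe sets did. The lowest adjusted p of a member was 0.0876, for TGFA 211258_s_at in M5 against M4. With the array-set block 3 differences were called, 2 of them rises of TGFA in M5 against M4 (background 1.59%, of which rises 0.932%) and 1 a fall of EGFR in M1 against control (background 0.239%, of which falls 0.104%), and the other 6 comparisons had 0 of 26 (backgrounds 0.428% for the mean of the lines, 0.108% for M4, 1.54% for M5, 0.0855% for M4 against M1, 1.37% for M5 against M1 and 0.018% for luciferase).

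Some probe sets did not overlap between groups at all, and those of 1 gene can read the same RNA and cannot be counted as independent. Of 26 members 0 lay wholly above or below in the mean of the lines (0.54% of all probe sets), 4 in M1 (5.76%), 2 in M4 (10.4%) and 3 in M5 against control (11.4%). There were 4 in M4 against M1 (8.56%), 4 in M5 against M1 (12.5%), 7 in M5 against M4 (14.8%), 3 of these for TGFA and 2 for NRG1, and 9 in control with against without luciferase (27.7%).

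**Figure D1:**
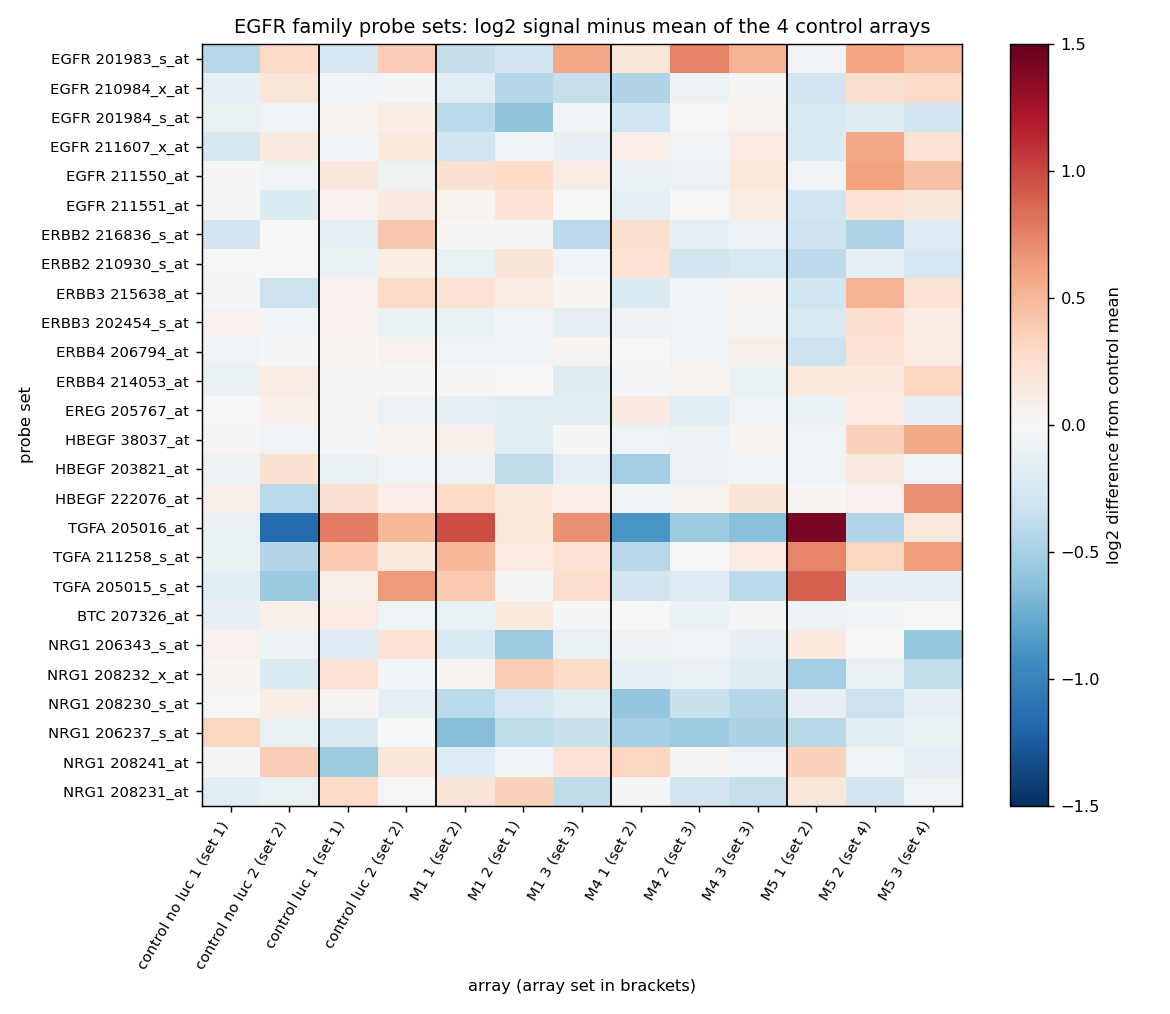
Log2 signal of each of the 26 probe sets (rows, by member) on each of the 13 arrays (columns, by group), minus the mean of the 4 control arrays, on a colour scale from -1.5 to 1.5. TGFA 205016_at is high in M1 replicates 1 and 3, in M5 replicate 1 and in control cells with luciferase. It is low in M4 and in replicate 2 of the control cells without luciferase, and most other rows stay near 0.

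EGFR, the receptor of TGFA, was not called in its brightest probe set, and its 6 probe sets differed in sign between groups. The probe set 201983_s_at read 7.42 and 8.13 in control cells without luciferase and 7.58 and 8.21 with it. It read 7.47, 7.55 and 8.40 in M1, 8.01, 8.57 and 8.35 in M4 and 7.78, 8.43 and 8.28 in M5. The lines overlapped the controls, and the 3 arrays of set 1 held 3 of the 4 lowest values whether control or M1. The mean of the lines was 0.26 ± 0.21 (SE) above control without the block and -0.22 ± 0.13 with it, and neither passed (adjusted p = 0.828 and 0.67 by limma). Array set took 79.5% of the sum of squares of this probe set over the arrays and group 31.0%, shares that overlap because the sets and groups do.

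The call for EGFR came from a dimmer probe set, 201984_s_at. It read 5.74, 5.80, 5.90 and 5.96 in the 4 controls, 5.45, 5.25 and 5.80 in M1, 5.55, 5.86 and 5.90 in M4 and 5.62, 5.67 and 5.57 in M5. The M5 values all lay below the controls, M1 replicates 1 and 2 did too, and M1 replicate 3 did not. M1 lay 0.35 ± 0.13 below control without the block (difference -0.35, adjusted p = 1) and fell by 0.49 ± 0.08 with it, 1.40-fold (limma, adjusted p = 0.0317). In pooled RNA, fewer cells with a transcript and less of it per cell cannot be told apart. Within set 1 the M1 array differed from the 2 controls by -0.57, and within set 2 by -0.43. The M4 and M5 arrays of set 2 differed from the same controls by -0.33 and -0.26. In that set the lower reading was therefore not particular to M1. The call with the block was lost when any 1 control, M1 or M4 array was left out, with differences from -0.52 to -0.42, and the fit without M5 replicate 1 could not be made.

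The other 4 EGFR probe sets did not pass in M1 with the block. Without it, 2 of the 6 EGFR probe sets were higher and 4 lower in M1 than in control, over differences from -0.35 to 0.20. In M5 without the block 5 of 6 were higher and 1 lower, from -0.23 to 0.33, and with it 1 was higher, by 0.00031, and 5 lower, down to -0.35. The fall in M1 was thus called on 1 of the 6 probe sets of the gene.

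**Figure D2:**
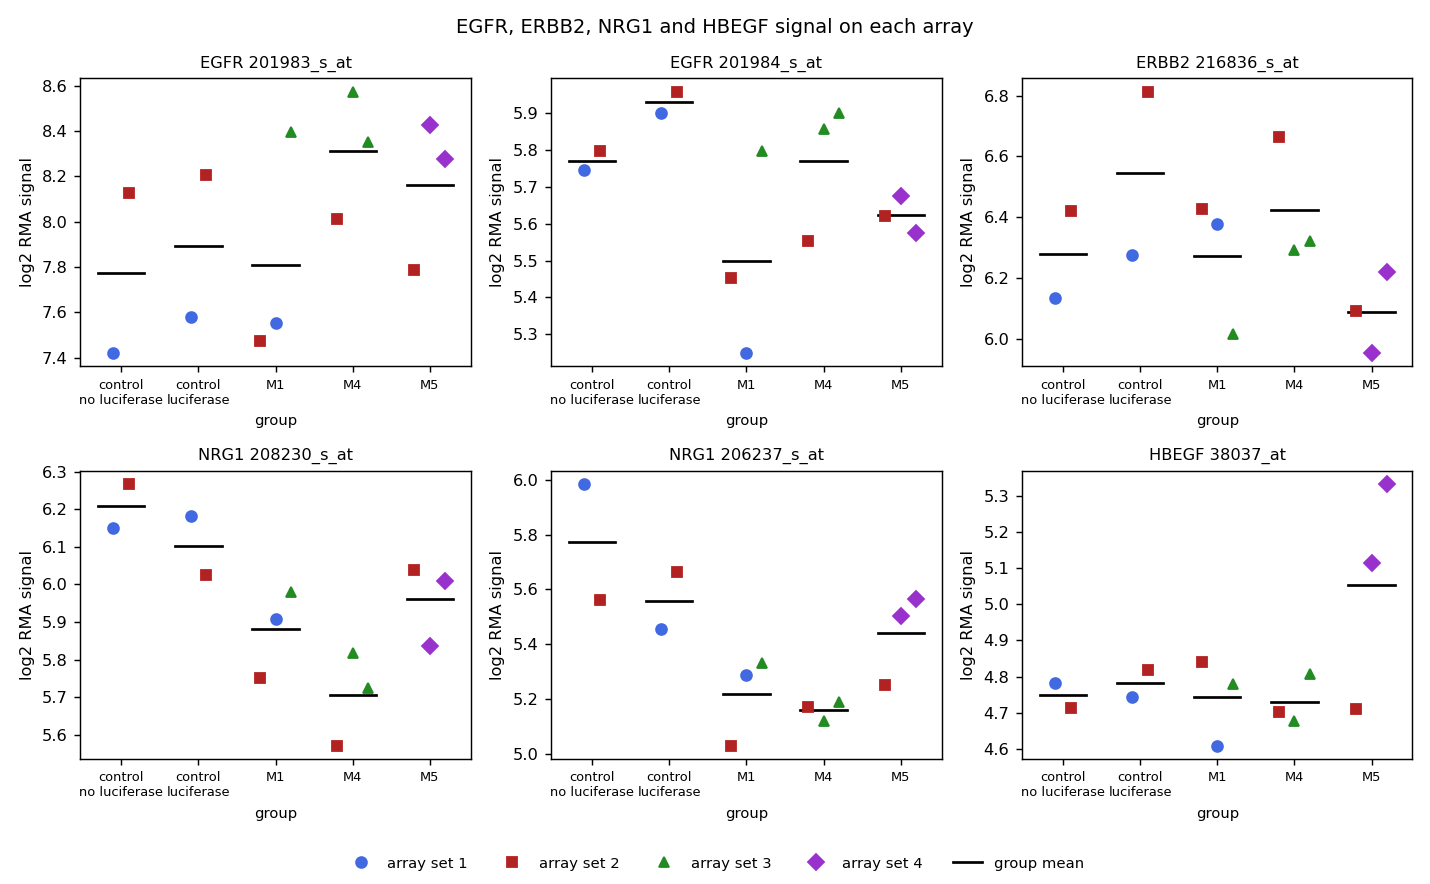
Log2 signal (vertical axis, scaled apart in each panel) of probe sets of EGFR, ERBB2, NRG1 and HBEGF on each array, by group (horizontal axis), with marker shape and colour for the array set and a bar for the group mean. EGFR 201983_s_at is low on the arrays of set 1, and within set 2 it ranges from 7.47 in M1 to 8.21 in the control with luciferase. NRG1 206237_s_at lies lower in M1 and M4 than on all 4 control arrays.

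ERBB2, the partner receptor without a ligand, was not called in any comparison. Its probe set 216836_s_at read 6.13, 6.42, 6.28 and 6.81 in the controls, 6.43, 6.38 and 6.02 in M1, 6.66, 6.29 and 6.32 in M4 and 6.09, 5.95 and 6.22 in M5. All 3 M5 arrays lay below all 3 M4 arrays, and they overlapped the controls. The M5 minus M4 difference was -0.34 ± 0.17 (adjusted p = 0.417) and -0.63 ± 0.17 with the block (adjusted p = 0.101, limma). The dimmer 210930_s_at read 4.04, 4.29 and 4.18 in M5 against 4.34 to 4.55 in the controls, and these groups did not overlap.

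ERBB3, which binds NRG1 and signals through its partners, and ERBB4, the other NRG1 receptor, were dim. ERBB3 215638_at ranged from 3.59 to 4.44 over the 13 arrays, and the lines differed from control by 0.06 ± 0.13 on average (adjusted p = 0.939). ERBB3 202454_s_at ranged from 3.34 to 3.82. ERBB4 206794_at ranged from 3.50 to 4.02 and 214053_at from 3.44 to 3.94. The M5 arrays lay above all controls for 214053_at, with a difference of 0.21 ± 0.10 that did not pass (adjusted p = 0.304).

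TGFA, the EGFR ligand named for transforming growth factor alpha, varied most between groups. Its control region is shown beside that of its receptor EGFR, because TGFA carries the largest differences in the family. The 250 bases before the first RefSeq start site in GRCh38.p14 are given from 5′ to 3′ on the strand of the gene, at chr2:70553827-70554076 (minus strand) for TGFA and at chr7:55018767-55019016 (plus strand) for EGFR. Capitals mark GC boxes, searched as GGGCGG on both strands.
TGFA: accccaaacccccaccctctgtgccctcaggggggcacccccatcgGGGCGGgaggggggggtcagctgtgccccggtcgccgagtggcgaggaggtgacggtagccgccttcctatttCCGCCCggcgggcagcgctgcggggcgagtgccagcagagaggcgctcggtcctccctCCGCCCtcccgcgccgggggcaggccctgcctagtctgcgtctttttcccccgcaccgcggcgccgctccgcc
EGFR: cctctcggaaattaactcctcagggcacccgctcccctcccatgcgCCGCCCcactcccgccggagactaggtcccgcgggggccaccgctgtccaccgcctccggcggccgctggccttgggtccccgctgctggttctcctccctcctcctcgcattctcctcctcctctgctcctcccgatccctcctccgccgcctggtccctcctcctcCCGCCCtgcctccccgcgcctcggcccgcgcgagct
The TGFA window holds 3 GC boxes and 75.6% G and C, and the EGFR window 2 and 73.6%. Neither holds TATAAA, the letters of a TATA box, on either strand. A GC box was found in 42.6% and TATAAA in 10.7% of all 35116 windows of this length, whose median was 58.0% G and C. First windows were at hand for 7 of the 9 measured members, of which 4 held a GC box and 1, EREG, held TATAAA. EGFR and TGFA also have a window at a second start site, not shown. That of EGFR holds 2 TATAAA, 0 GC boxes and 38.8% G and C, and that of TGFA 0, 0 and 64.0%. The motifs searched do not overlap in the 2 windows shown, and a match is a description of the letters only.

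The brightest TGFA probe set, 205016_at, read 6.95 and 5.90 in control cells without luciferase and 7.83 and 7.55 in control cells with it. It read 8.04, 7.22 and 7.75 in M1, 6.19, 6.52 and 6.43 in M4, and 8.49, 6.62 and 7.22 in M5. M4 lay below every M1 and every M5 array and below both controls with luciferase, and it overlapped the controls without luciferase. The group means were 6.43 ± 0.74 (SD, n = 2) without luciferase, 7.69 ± 0.20 (n = 2) with it, 7.67 ± 0.42 (n = 3) in M1, 6.38 ± 0.18 (n = 3) in M4 and 7.44 ± 0.95 (n = 3) in M5. In that order of levels, M4 and the control without luciferase differ by less than their spread, and so do M5, M1 and the control with luciferase.

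The other TGFA probe sets ran the same way. The signals of 211258_s_at were 5.37, 5.03, 5.87 and 5.62 in the controls, 5.97, 5.60 and 5.69 in M1, 5.06, 5.47 and 5.59 in M4 and 6.21, 5.80 and 6.10 in M5. Those of 205015_s_at were 5.20, 4.81, 5.46 and 6.02 in the controls, 5.77, 5.34 and 5.64 in M1, 5.09, 5.18 and 4.97 in M4 and 6.26, 5.25 and 5.23 in M5. In all 3 probe sets the M4 arrays lay below all M1 and all M5 arrays, and M5 replicate 1 was the highest of the 13 arrays.

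**Figure D3:**
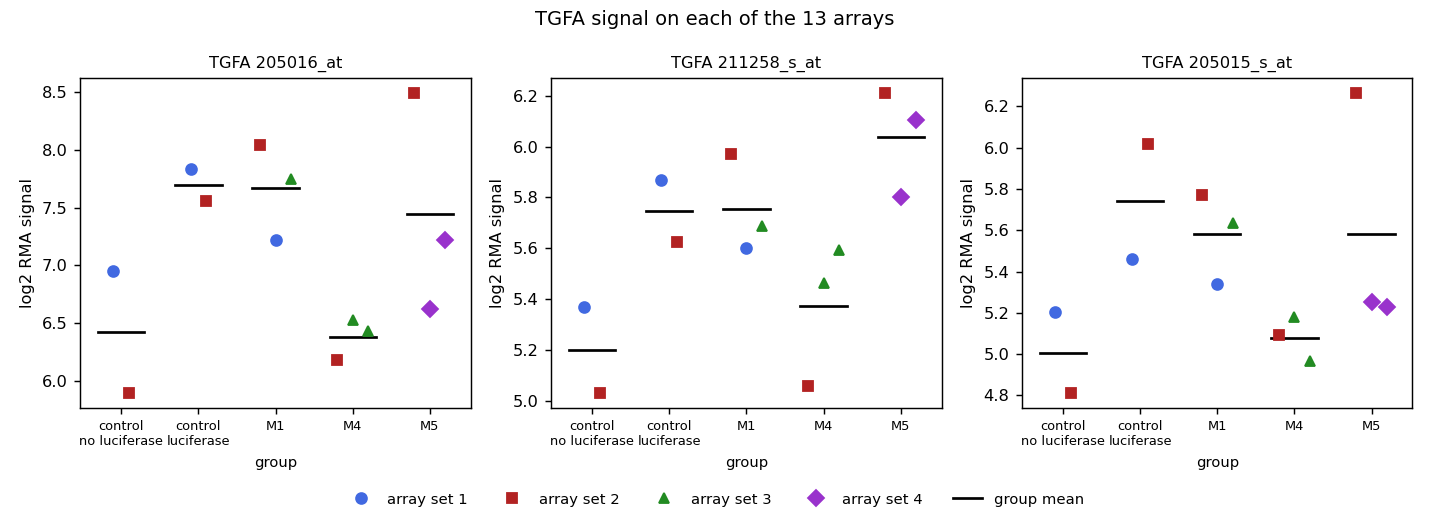
Log2 signal (vertical axis, scaled apart in each panel) of the 3 TGFA probe sets on each array, by group (horizontal axis), with marker shape and colour for the array set and a bar for the group mean. M4 lies below M1 and M5 in each panel, and M5 replicate 1, of array set 2, lies above the other 12 arrays.

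M5 exceeded M4 in TGFA, with a size that turned on the array sets. The difference in 205016_at was 1.06 ± 0.40 without the block (limma, adjusted p = 0.28) and 2.27 ± 0.41, 4.83-fold, with it (adjusted p = 0.027). For 205015_s_at it was 0.50 ± 0.25 (adjusted p = 0.417) and 1.17 ± 0.24, 2.25-fold, with the block (adjusted p = 0.0376). For 211258_s_at it was 0.67 ± 0.17 (adjusted p = 0.0876) and 0.98 ± 0.24 with the block (adjusted p = 0.0661), so this probe set passed in neither fit. Within set 2, the set that held arrays of both lines, the M5 array exceeded the M4 array by 2.30, 1.15 and 1.17 in 205016_at, 211258_s_at and 205015_s_at, with 1 array on each side.

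These calls rest on few arrays. With the block, M5 minus M4 in 205016_at stayed between 2.13 and 2.50 when each array except M5 replicate 1 was left out in turn. It was no longer called without M4 replicate 1 (limma, adjusted p = 0.173), M4 replicate 2 (0.0535) or M1 replicate 3 (0.0749). For 205015_s_at the difference stayed between 1.12 and 1.22, and the call was lost without any 1 of the M1 or M4 arrays. Neither fit could be made without M5 replicate 1. Leaving out M5 replicate 2 or 3 cannot move these differences (2.27 and 1.17), because set 4 holds only those arrays. The ranges therefore do not test the M5 side.

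M4 was lower than M1 in TGFA by a similar size in both fits, and the difference did not pass. The M4 minus M1 difference in 205016_at was -1.29 ± 0.40 (adjusted p = 1) and -1.31 with the block (adjusted p = 0.27). It was -1.85 within set 2 and -1.27 within set 3. Each of the 3 TGFA probe sets was lower on all M4 than on all M1 arrays, as was NRG1 208232_x_at, and 8.56% of all probe sets did not overlap between these lines.

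Against control, the sign of the M1 and M5 differences in TGFA 205016_at depended on the kind of control and, for M5, on the array-set block. Control cells with luciferase exceeded those without by 1.27 ± 0.49 in 205016_at, 2.41-fold, which did not pass (limma, adjusted p = 1). The difference was 0.88 within set 1 and 1.65 within set 2, and all 3 TGFA probe sets were higher on both luciferase arrays, where 27.7% of all probe sets did not overlap. Against control without luciferase M1 differed by 1.24, M5 by 1.02 and M4 by -0.04. Against control with luciferase the same lines differed by -0.03, -0.25 and -1.31. These values are without the block, and in 211258_s_at the M1 and M5 means of 5.75 and 6.04 were not below either kind of control. With the block, M5 exceeded the mean of both controls by 1.52 ± 0.38 in 205016_at (limma, adjusted p = 0.0812), and the 3 TGFA probe sets by 0.79 to 1.52, none of which passed. Within set 2 the M5 array exceeded the mean of the 2 controls by 1.76, 0.88 and 0.85 in 205016_at, 211258_s_at and 205015_s_at, and in 205016_at it read 8.49 against 7.55 in the luciferase control of that set. In M5 the difference from the mean of both controls was 0.56 ± 0.16 for 211258_s_at (adjusted p = 0.112), the lowest of a member in M5 against control without the block. Whether the luciferase difference belongs to the reporter or to the cells that carried it was not tested.

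Over the 5 groups together, a TGFA probe set gave the lowest adjusted p of the family in both fits. An F test over the group means called 0 of 26 members without the block (background 0.464%, lowest adjusted p = 0.219 for TGFA 211258_s_at). NRG1 206237_s_at, 208230_s_at and 208232_x_at came next in that F test (adjusted p = 0.31, 0.323 and 0.342), ahead of TGFA 205016_at (0.377). With the block the F test called TGFA 205016_at (limma, adjusted p = 0.0373), 1 of 26 members (background 0.815%). EGFR 201984_s_at (0.0728) then ranked ahead of TGFA 211258_s_at (0.126). Among 6824 genes above the median signal, the pair whose signal was most like that of TGFA 205016_at over the 13 arrays were ST8SIA4, a sialyltransferase (Pearson r = 0.79, Spearman rho = 0.69), and IL1R1, a receptor of interleukin 1 (r = 0.74, rho = 0.75). TGFA was the only member whose group means spanned at least 1 log2 unit in its brightest probe set, so no such genes were sought for the others.

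**Figure D4:**
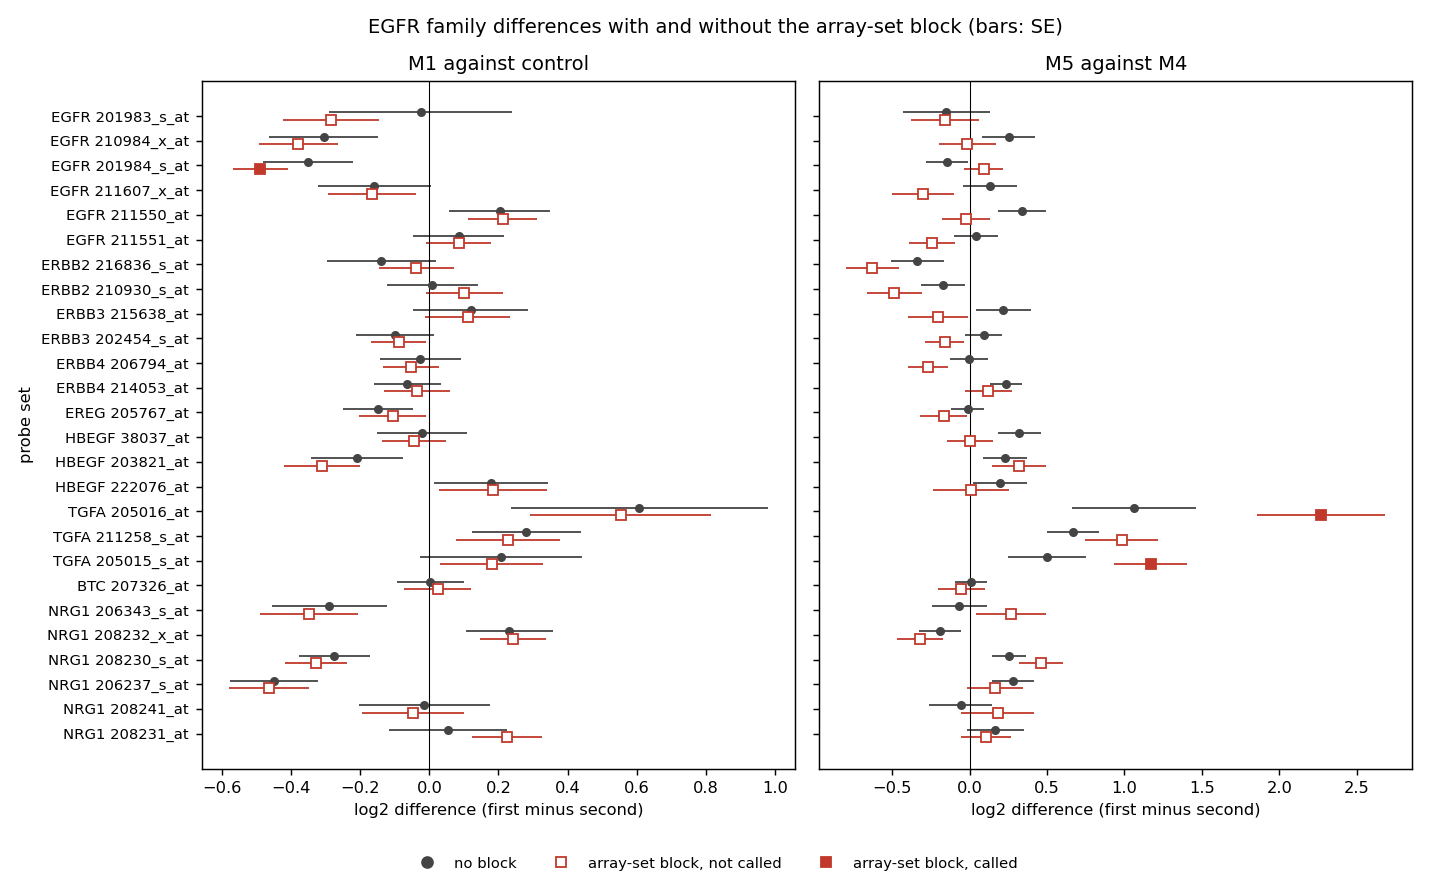
Log2 differences (horizontal axis) of the 26 probe sets (vertical axis) in M1 against control and in M5 against M4, without the array-set block (circles) and with it (squares, filled where called), with bars for the SE. In M5 against M4 the TGFA probe sets lie farthest to the right, and 205016_at goes from 1.06 to 2.27.

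HBEGF, a heparin-binding ligand of EGFR and ERBB4, was dim and was not called. Its probe set 38037_at read 4.71 to 4.82 in the controls, 4.84, 4.61 and 4.78 in M1, 4.70, 4.68 and 4.81 in M4 and 4.71, 5.11 and 5.33 in M5. The 2 high values are the M5 arrays of set 4, and M5 replicate 1, in set 2, was level with the controls. M5 differed from control by 0.29 ± 0.13 without the block (adjusted p = 0.302) and by -0.09 with it (adjusted p = 0.852). Array set took 85.2% of the sum of squares of this probe set. The other HBEGF probe sets, 203821_at and 222076_at, differed from control by -0.14 and 0.17 in the mean of the lines (adjusted p = 0.827 for both).

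NRG1, the ligand of ERBB3 and ERBB4, gave the lowest adjusted p-values of the family for the mean of the lines and for M4 against control without the block, in a pair of probe sets that read lower in the lines. The signals of 206237_s_at were 5.98, 5.56, 5.45 and 5.66 in the controls, 5.03, 5.29 and 5.33 in M1, 5.17, 5.12 and 5.19 in M4 and 5.25, 5.50 and 5.57 in M5. The M1 and M4 arrays all lay below all 4 controls, and M5 overlapped them. The mean of the lines differed by -0.39 ± 0.10, 1.31-fold (limma, adjusted p = 0.325), and by -0.44 ± 0.11 with the block (adjusted p = 0.14). Its M4 difference was -0.51 ± 0.13 (adjusted p = 0.362).

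The signals of 208230_s_at ran likewise, at 6.15, 6.27, 6.18 and 6.02 in the controls, 5.75, 5.91 and 5.98 in M1, 5.57, 5.82 and 5.72 in M4 and 6.04, 5.84 and 6.01 in M5. All M1 and M4 arrays again lay below all controls. Its M4 difference was -0.45 ± 0.10 (adjusted p = 0.283) and -0.55 ± 0.11 with the block (adjusted p = 0.112). Of the 26 members, 4 probe sets in M1 and 2 in M4 lay wholly below control and 0 wholly above, where 5.76% and 10.4% of all probe sets did not overlap. In M1 the others were EGFR 210984_x_at and EREG 205767_at.

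The brightest NRG1 probe sets did not share this order. The signals of 206343_s_at were 7.86, 7.71, 7.60 and 8.00 in the controls, 7.58, 7.25 and 7.67 in M1, 7.72, 7.75 and 7.67 in M4 and 7.93, 7.78 and 7.23 in M5, and all 3 lines overlapped the controls. Those of 208232_x_at were 7.07, 6.82, 7.25 and 7.00 in the controls, 7.07, 7.41 and 7.32 in M1, 6.90, 6.93 and 6.85 in M4 and 6.51, 6.93 and 6.66 in M5. In 208232_x_at M5 lay below all M1 arrays, by -0.57 ± 0.14 (adjusted p = 0.0917) and by -0.64 ± 0.14 with the block (adjusted p = 0.0548, limma), and neither passed. NRG1 makes many transcripts from several start sites, and which of them each probe set reads was not tested.

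EREG and BTC, ligands of EGFR and ERBB4, stayed at the bottom of the signal range. EREG ranged from 3.17 to 3.47 and BTC from 3.43 to 3.70 over the 13 arrays. The mean of the lines differed from control by -0.07 ± 0.08 in EREG (adjusted p = 0.882) and by -0.03 ± 0.08 in BTC (adjusted p = 0.958).

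Leaving out M5 replicate 1 gave other calls in M5, from the 2 arrays of set 4 alone. Without the block HBEGF 38037_at was then called in M5 against control (0.46, adjusted p = 0.0102), M1 (0.48, 0.0136) and M4 (0.49, 0.0118). EGFR 211550_at was called against control (0.52, 0.00879) and M4 (0.53, 0.0126), and EGFR 210984_x_at and 211607_x_at against M1 (0.57, 0.0219 and 0.55, 0.0248). NRG1 208232_x_at was called against M1 (-0.47, 0.0356), and TGFA 211258_s_at (0.58, 0.0476) and ERBB3 215638_at (0.44, 0.0481) against M4. TGFA 205016_at and 205015_s_at, called in M5 against M4 with the array-set block, were not called in that fit. M5 replicates 2 and 3 read 6.62 and 7.22 in 205016_at, where the M4 mean was 6.38. In 205015_s_at they read 5.25 and 5.23, where the M4 mean was 5.08. In that fit 4947, 3746 and 3654 of all probe sets were called in M5 against control, M1 and M4, and line and array set cannot be told apart there. With M5 replicate 1 alone in place of all 3, TGFA 205016_at in M5 against M4 differed by 2.10. That fit takes the lone M5 array to vary like the other groups, and the array is the highest of the 13 in this probe set.

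Around the receptors, few pathway genes passed against control. No gene passed in M1 or M4 in either fit, nor among 2 of 5 other EGF-family ligands measured, 11 of 12 genes of ligand release or 23 of 30 adaptors and effectors in M5. Of the 16 ERK-responsive targets, all measured, 1 fell in M5 in both fits and 15 did not pass, where 1.4% of all probe sets were called without the block and 1.54% with it. The median of the list was -0.05 without the block (0.03 over all probe sets) and -0.31 with it (-0.01 over all). Of 23 negative regulators 18 were measured, and 0 passed without the block and 2 fell in M5 with it, against the same shares over all probe sets. The median of that list was 0.09 without the block and -0.09 with it, so its sign turned.

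ETV5, an ETS transcription factor induced by ERK signalling, was the target that fell. It read 8.46, 8.63, 8.57 and 8.68 in the controls, 8.87, 8.58 and 8.65 in M1, 8.72, 8.73 and 8.72 in M4 and 7.65, 8.25 and 7.65 in M5. The M5 arrays of both array sets lay below the other 10 arrays. It fell in M5 by 0.73 ± 0.14 (limma, adjusted p = 0.0292) and by 1.02 ± 0.19 with the block (adjusted p = 0.0264), and it was called without M5 replicate 1 too (-0.63, adjusted p = 0.0118).

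SPRY4, an inhibitor of the RAS-ERK pathway, and DUSP5, a phosphatase of ERK, were called in M5 with the block only. SPRY4 read 8.27 to 8.56 in the controls and 7.74, 8.97 and 9.02 in M5, so that M5 replicate 1 lay below the controls and the others above. With the block it fell by 0.85 ± 0.16 (adjusted p = 0.0256), without it the difference was 0.15 (adjusted p = 0.798), and without M5 replicate 1 it was called the other way (0.57, adjusted p = 0.0311). DUSP5 read 7.78 to 8.83 in the controls and 7.64, 8.93 and 8.50 in M5, and fell by 0.94 ± 0.20 with the block (adjusted p = 0.0447) against a difference of 0.02 without it (adjusted p = 0.975).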

How the data were processed

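For 13 arrays the authors deposited 1 log2 signal per probe set (22277 in all), computed with RMA per the submitters' processing notes. Its version and any batches: not given in the sources used here. Probe sets were named by the platform annotation. The members, the pathway lists and the comparisons were chosen with earlier results of these data known.

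Without the 62 Affymetrix controls, 22215 probe sets were fitted in limma 3.58.1 (R 4.3.3), as 5 group means with a shared spread and no filter. Control is the mean of both kinds, and the lines weigh equally. Calls were made below 0.05 after Benjamini-Hochberg adjustment across all 22215. Array sets came from Ward clustering of the control probe sets into 4. Errors of differences are limma's standard errors. The script was tested on simulated data. For each member the brightest probe set led. Pathway genes were named where called against control, up to 4 a list. Probe-level images were not used here. The number of arrays limits the precision. Sequences are from RefSeq (GRCh38.p14), matched by symbol.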

Additional observations from a re-analysis of the deposited data

Results flagged for a closer look

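On 3 of 52 groups of arrays checked, 1 array stood apart from the rest of its group, and chance gives about 5% of groups. HBEGF 203821_at read 4.93 in control cells without luciferase, replicate 2, against 4.64 in the next of the 4 controls, a gap of 0.879 of their range. BTC 207326_at read 3.70 in M1 replicate 2 against 3.57 in the next of the 9 metastatic arrays, a gap of 0.516 of their range. HBEGF 222076_at read 5.03 in M5 replicate 3 against 4.63 in the next, a gap of 0.549 of the range. M5 and M4 differed in TGFA with the array-set block, by 2.27 in 205016_at and by 1.17 in 205015_s_at.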

How the results depend on the processing

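Counts of members called were 0 of 26 in all 8 comparisons in the fit without a block, and most alternatives kept this. With the array-set block 1 member was called in M1 against control and 2 in M5 against M4. An alternative without M5 replicates 2 and 3 was added after seeing the data. It leaves M5 with 1 array assumed to vary like the other groups, so only a size is given. TGFA 205016_at in M5 against M4 then differed by 2.10. Leaving out each array in turn gave 0 to 2 calls in M5 against control, 0 to 4 in M5 against M1 and 0 to 4 in M5 against M4. It gave 0 to 0 in the others. Over all 22215 probe sets these fits called 54 to 4947, 30 to 3746 and 70 to 3654 in the same M5 comparisons. Members were called in them only without M5 replicate 1, where 2, 4 and 4 of 26 stood beside 4947, 3746 and 3654 of all 22215. The array-set block changed the sign of 47 of 208 differences, none of them called in either fit, and leaving out each array with that block was also added after seeing the data. The fit without a block called 0 members, so there was no called difference that an alternative could reverse. Replicate numbers do not pair the arrays across all groups: of 23 pairs with the same number 7 correlated above 0.1, with r from -0.52 to 0.54. The 2 kinds of control did share array sets by number, as did replicate 1 of M1, M4 and M5. With the replicate number as a block 0 members were called in every comparison. Over all probe sets, calls in M5 against control went from 310 to 102 with the replicate block, 18 with only the arrays compared and 4947 without M5 replicate 1. Dim probe sets limit what can be seen of ERBB3, ERBB4, EREG and BTC.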

Other observations

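Shares of the sum of squares over the arrays were set beside those of all probe sets. Array set took a larger share of the sum of squares than group in 13 of 26 probe sets (50%), against 74.3% of all probe sets, and the median shares were 40.2% for array set and 39.5% for group in the family against 57.3% and 33.2% over all. Within the family the extremes were HBEGF 38037_at, with 85.2% for array set, and TGFA 205016_at, with 5.78% for array set and 61.3% for group. The median SD over the 13 arrays was 0.230 in the family and 0.185 over all probe sets. These shares are descriptions with no test of their difference, since array sets and groups overlap and probe sets of 1 gene are not independent.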
